A study of Zonotrichia albicollis with 38 samples.

Results

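CPLX3, DYRK4, MATK, MPPED1, CNKSR2 and VAT1L are 6 of the 15111 genes counted by RNA-seq in the brain of the white-throated sparrow (Zonotrichia albicollis). They were chosen by their measured levels, as genes that differ strongly between the medial amygdala (MeA) and the hypothalamus (HYP). That difference is therefore given as a description with no test, and the tests below concern the plumage morphs, age and stage labels and covariation across birds. All 6 genes were found in the count table by symbol.

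Libraries were made from 10 white-striped (WS) and 9 tan-striped (TS) males, plumage morphs of which WS birds carry the rearranged chromosome ZAL2m and TS birds do not. Each bird gave 1 MeA and 1 HYP library, 38 in all, with 7150476 to 14482856 counts per library. All birds were wild and were caught in the territorial season a day after a staged intrusion by playback, so no group was free of that challenge. Each library came from pooled punches of frozen sections: the MeA punches were mostly, but not wholly, MeA, and the HYP punches took in parts of the preoptic area, the paraventricular nucleus and the anterior and ventromedial hypothalamus. Of the WS birds, 8 were labelled ASY and 2 SY for age, and of the TS birds, 2 were labelled ASY and 7 SY. The stage label was E in 8 WS and 6 TS birds and another letter code in 2 WS and 3 TS birds, and the labels do not define these codes.

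The medial amygdala and the hypothalamus are linked stations of the circuits for social and reproductive behaviour in vertebrates. The amygdala is telencephalic and the hypothalamus diencephalic, and neurons of these divisions are known to use different sets of transcription factors, synaptic proteins and signalling proteins. CPLX3 encodes a complexin, a small protein that binds the SNARE complex and tunes the fusion of synaptic vesicles, and in the mouse it is best known from ribbon synapses of the retina. DYRK4 is a dual-specificity kinase, studied in rodents mainly in the testis. MATK is a tyrosine kinase related to CSK, and both phosphorylate the inhibitory tail tyrosine of Src-family kinases. CNKSR2 is a scaffold of the Ras to MAP kinase pathway at the postsynaptic density, and loss of it in humans is a cause of epilepsy and intellectual disability. MPPED1 carries a metallophosphoesterase domain and VAT1L is a relative of the vesicle protein VAT1, and the function of both is little known.

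Levels are given as CPM, counts scaled to a common library size by TMM over all 38 libraries. They are compared between regions and birds for the same gene, not between genes, since gene length was not taken into account. CPLX3, DYRK4, MATK, MPPED1 and CNKSR2 were higher in MeA and VAT1L was higher in HYP, and for each of the 6 the direction was the same in 19 of 19 birds. CPLX3, the complexin, had a lowest, median and highest level of 71.1, 137 and 229 CPM in MeA, against 0, 0.537 and 0.744 CPM in HYP. HYP libraries held 0 to 9 CPLX3 counts each and 103 in all, so the gene was close to undetected there, while the lowest MeA library had 95.6 times the level of the highest HYP library. DYRK4, the kinase, had 163, 266 and 343 CPM in MeA, against 0.324, 1.15 and 2.79 CPM in HYP, again with all MeA libraries above all HYP libraries. The HYP values of DYRK4 rested on 3 to 29 counts a library.

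MATK, the CSK relative, had a lowest, median and highest level of 36.8, 52.3 and 75.0 CPM in MeA, against 1.45, 2.38 and 3.13 CPM in HYP. MPPED1 and CNKSR2 were well covered in both regions, with 633 or more counts in every HYP library. MPPED1 had 448, 581 and 634 CPM in MeA, against 79.0, 84.9 and 102 CPM in HYP. CNKSR2, the scaffold, had 544, 733 and 857 CPM in MeA, against 111, 136 and 155 CPM in HYP. VAT1L had 192, 235 and 295 CPM in MeA, against 1991, 2126 and 2326 CPM in HYP. No library of one region entered the range of the other for any of the 6 genes, and the narrowest gap was that of CNKSR2, whose lowest MeA library stood at 3.51 times its highest HYP library. The 6 were picked for this region difference, and how many other genes separate as fully was not counted. Because each library is a mix of cells, fewer cells of a type and less RNA per cell cannot be told apart in these values.

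**Figure D1:**
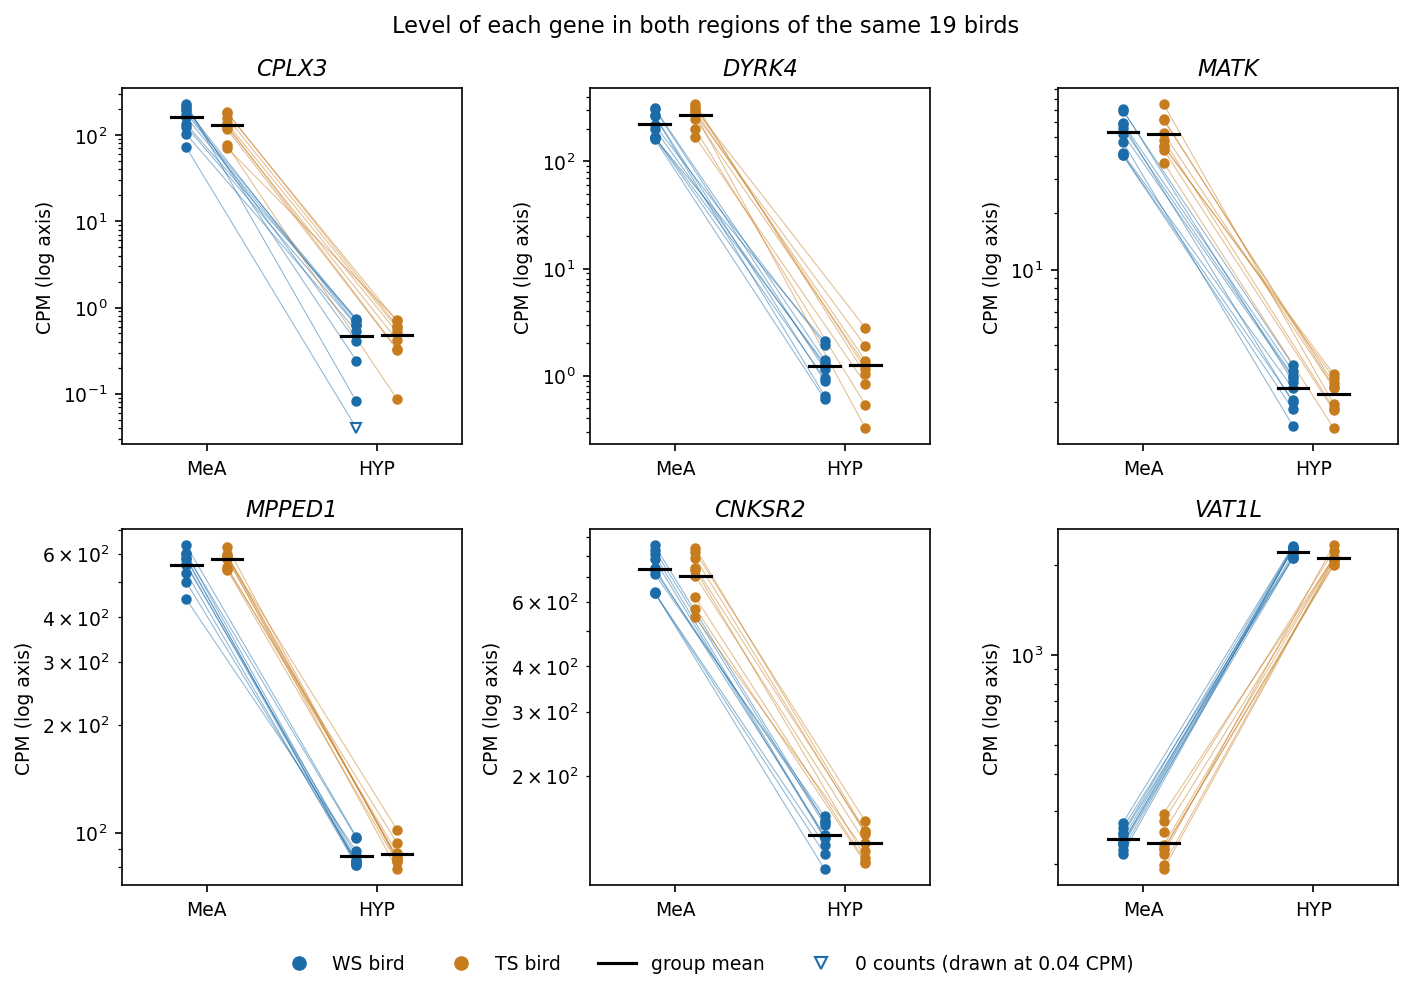
Level of each gene (CPM, log axis) in MeA and HYP, with thin lines joining both libraries of a bird, blue for WS and orange for TS, black bars for group means (n = 10 WS and 9 TS birds) and an open triangle for the library with 0 CPLX3 counts. CPLX3, DYRK4, MATK, MPPED1 and CNKSR2 lie higher in MeA and VAT1L lies higher in HYP in all 19 birds, and the WS and TS points overlap in every panel.

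With the bird as a block, the edgeR estimate was 8.24 for CPLX3 (SE 0.10, log2 fold change of MeA over HYP), or 302-fold. It was 7.60 for DYRK4 (SE 0.10, 195-fold) and 4.51 for MATK (SE 0.064, 22.7-fold). MPPED1 stood at 2.71 (SE 0.034, 6.56-fold) and CNKSR2 at 2.43 (SE 0.032, 5.38-fold), and VAT1L at −3.19 (SE 0.039), which is 9.13-fold higher in HYP. Ranked by the size of this difference among 12245 genes, CPLX3 was number 5, DYRK4 number 10, MATK 124, VAT1L 289, MPPED1 446 and CNKSR2 537. Region differences were common in these libraries, with 79.8% of those genes called, 39% higher and 40.8% lower in MeA, so a call by itself would say little about the 6, and no limit in fold was set when they were picked.

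The region difference was also measured within each bird. Among the 6 it varied least for MPPED1, CNKSR2 and VAT1L, with an SD of 0.14, 0.13 and 0.16 in log2 terms. The fold ran from 5.05 to 7.52 for MPPED1, from 4.38 to 6.15 for CNKSR2 and, as HYP over MeA, from 7.17 to 10.8 for VAT1L. MATK ran from 16.0 to 38.5-fold, with a median of 22.1. For CPLX3 and DYRK4 the low HYP counts set the precision. In the 14 birds with more than 3 CPLX3 counts in HYP the fold was 99.0 to 482, with a median of 263. In 4 birds with 1 to 3 counts the ratio was less certain. In a WS bird whose HYP library held 1 CPLX3 count it was 2812 with an exact (Clopper-Pearson) 95% interval of 504 to 111116. In the WS bird with 0 counts CPLX3 was 184-fold higher in MeA when 3 counts were put in place of 0. That is a set floor and not an exact limit. The exact intervals cover counting error only. DYRK4 was 79.8 to 409-fold higher in MeA in the 18 birds with more than 3 counts in HYP. In the other bird, of the TS morph and with 3 DYRK4 counts in HYP, the ratio was 857 (exact 95% interval 293 to 4159).

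The gene families of the 6 were followed through lists of relatives and pathway partners. Of 17 tested genes of synaptic vesicle release, 11 were higher in MeA, 3 were lower and 3 did not pass the test (edgeR, bird as a block), and their median log2 fold change was 0.38, against −0.011 over all genes tested. Of all 12245 genes tested, 39% were called higher and 40.8% lower in MeA, the background for this list and those that follow. CPLX1, the complexin of fast release at many central synapses, averaged 1549 ± 341 CPM in MeA and 448 ± 33.4 CPM in HYP (SD, n = 19 each), which differ by 1.76 in log2 terms (SE 0.064, edgeR adjusted p = 1.06e-17). CPLX2 rose less, with a log2 fold change of 1.54 (SE 0.052, edgeR adjusted p = 2.20e-18), and both were higher in MeA in 19 of 19 birds. CPLX4, the other complexin of the mouse retina, had 4 counts over all MeA libraries and 17 over all HYP libraries, too few to test. The vesicle protein SV2B rose by 2.65 in log2 terms (SE 0.052, edgeR adjusted p = 1.11e-22). UNC13C, a priming factor for vesicle release, fell by 3.54 (SE 0.13, edgeR adjusted p = 1.83e-17) and the vesicle protein SV2C fell by 1.61 (SE 0.12, edgeR adjusted p = 6.95e-12), both lower in MeA in 19 of 19 birds.

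The kinases closest to DYRK4 differed far less between the regions than DYRK4, which was picked for its region difference. Of 5 tested DYRK and HIPK kinases, 1 was higher and 4 were lower in MeA, with a median log2 fold change of −0.37. HIPK3 fell by 0.54 (SE 0.028, edgeR adjusted p = 1.16e-14), DYRK2 fell by 0.41 (SE 0.036, edgeR adjusted p = 2.17e-10) and HIPK2 fell by 0.37 (SE 0.059, edgeR adjusted p = 3.44e-06). DYRK3 was the gene called higher, by 0.19 (SE 0.083, edgeR adjusted p = 0.0434), in 10 of 19 birds. DESeq2, a fit with no filter and leaving out a bird, for 11 of the 19 birds, each ended that call, and over all alternatives the adjusted p was 0.0252 to 0.109. DYRK1A was not analysed here.

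Among 6 tested CSK and Src-family kinases, the enzyme class and substrates of MATK, 3 were higher and 3 lower in MeA, and the median log2 fold change was −0.033. CSK itself fell by 0.21 (SE 0.031, edgeR adjusted p = 1.71e-06). YES1 rose by 0.56 (SE 0.023, edgeR adjusted p = 1.16e-16) and LYN rose by 0.25 (SE 0.051, edgeR adjusted p = 0.000117). SRC fell by 0.45 (SE 0.033, edgeR adjusted p = 6.85e-12) and FRK fell by 0.41 (SE 0.13, edgeR adjusted p = 0.00532).

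Of 17 tested genes of the Ras to MAP kinase cascade and its scaffolds, the setting of CNKSR2, 11 were higher, 4 were lower and 2 did not pass, with a median log2 fold change of 0.40. KSR1, another scaffold of the cascade, rose by 1.10 (SE 0.051, edgeR adjusted p = 1.02e-15). The membrane scaffolds DLG3 and DLG1 rose by 0.97 (SE 0.030, edgeR adjusted p = 4.94e-19) and 0.94 (SE 0.035, edgeR adjusted p = 1.66e-17), and CNKSR3, the closest relative of CNKSR2 in the table, rose by 0.81 (SE 0.085, edgeR adjusted p = 4.58e-09). All of these were higher in MeA in 19 of 19 birds. MPPED2, the relative of MPPED1, went the other way from it, falling in MeA by 1.59 (SE 0.084, edgeR adjusted p = 1.41e-14). VAT1 had the direction of VAT1L and fell by 1.81 (SE 0.036, edgeR adjusted p = 1.46e-22).

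**Figure D2:**
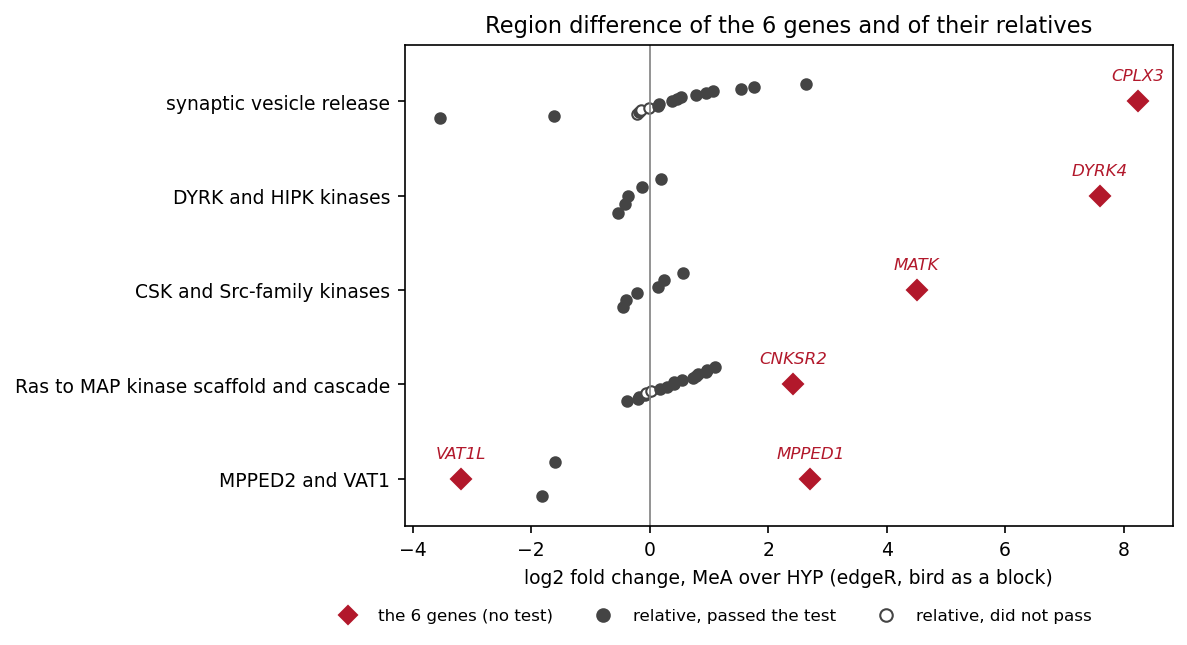
Log2 fold change of MeA over HYP for the 6 genes (red diamonds, no test) and for the tested relatives or partners of each (circles, filled where edgeR's adjusted p was under 0.05). CPLX3 at 8.24, DYRK4 at 7.60, MATK at 4.51 and CNKSR2 at 2.43 lie outside the range of their listed relatives. Since the 6 genes were picked for a strong region difference, that is no finding about them. MPPED2 lies on the opposite side of 0 from MPPED1.

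The tissue labels and the term neuronal were checked against cell type markers. Of 9 tested pallial markers 7 were higher in MeA, 1 was lower and 1 did not pass, and of 11 hypothalamic markers 10 were lower in MeA and LHX9 was higher by 1.97. Among all genes tested, 39% were called higher and 40.8% lower in MeA, so calls in a marker list were common in any case. NEUROD6, a transcription factor of pallial excitatory neurons, differed by 5.09 in log2 terms, and FEZF1, of the ventromedial hypothalamus, by −8.92. Pan-neuronal markers split, with 7 higher and 6 lower in MeA, and their summed level was 10405 to 11645 CPM in MeA of WS birds and 10294 to 13068 CPM in MeA of TS birds, against 9970 to 11256 CPM in HYP of WS birds and 10050 to 10990 CPM in HYP of TS birds. Glial and vascular markers were mostly higher in MeA: 7 of 7 for oligodendrocytes, 6 of 7 for astrocytes with 1 lower, 5 of 5 for microglia, 9 of 10 for endothelial and mural cells, and 6 of 8 leptomeningeal markers with 1 lower. Glutamatergic markers were higher in 2 of 3 cases and lower in 1, and GABAergic markers were higher in 2 of 6 and lower in 4. No listed marker in the table was at 0 in all libraries. Which cell types hold the transcripts of the 6 genes cannot be read from these libraries, and the part of cell make-up in their region difference was not tested.

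Within a region, the 6 genes differed greatly in how much the birds varied. The biological coefficient of variation (BCV) is edgeR's estimate of the spread between birds of a morph beyond counting error. In MeA it was 30.2% for CPLX3, 22.7% for DYRK4 and 20.2% for MATK, and 99.0%, 97.1% and 91.7% of the genes of similar level had a lower BCV than these. Similar level here means a mean log2 CPM within 0.5 of the gene. CNKSR2 (13.1%), VAT1L (11.4%) and MPPED1 (9.13%) were closer to the typical gene, with 77.5%, 65.3% and 35.9% of similar genes below them. Counting error was small in MeA, with a coefficient of 1.19% for CNKSR2 to 4.43% for MATK, far below these spreads.

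In HYP the order changed. VAT1L had a BCV of 5.37%, the lowest among 26 genes of similar level with VAT1L itself counted, and its highest HYP library was 1.17 times its lowest. MPPED1 had 7.12% and CNKSR2 9.21%, with 48.4% and 85.0% of similar genes below them. MATK, so variable in MeA, had a HYP BCV of 16.3%, and 18.3% of similar genes had a lower one. Its whole CV over the HYP libraries was 21.2%, and counting error alone gave a coefficient of 19.6%. edgeR pulls each BCV toward those of genes of similar level, most where counts are few. The HYP BCVs of MATK and DYRK4 are therefore no direct measure of the spread between birds. DYRK4 had 36.4%, with counting error of 26.6%. CPLX3 did not pass the filter on low counts in HYP and has no BCV there.

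The morphs were then compared within each region. In MeA 0 of the 6 genes passed edgeR's test of WS against TS, where 0.523% of 11672 genes did, 0.308% higher and 0.214% lower in WS birds. None of the 6 had an unadjusted p under 0.05 there, where 8.85% of all genes tested in MeA did. In HYP 0 of the 5 genes tested passed, where 0.796% of 11930 genes did. Again none of them had an unadjusted p under 0.05, where 7.59% of all genes tested in HYP did. DESeq2 called none of them either. Against these shares, a count of 0 among so few genes says little about them. The intervals of these differences follow, since a missed threshold does not show equal levels.

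CPLX3 in MeA had a lowest, median and highest level of 71.9, 168 and 229 CPM in WS birds, against 71.1, 130 and 184 CPM in TS birds. Of the 10 WS birds 4 lay above all TS birds and 7 above the TS mean, and the rest overlapped. The log2 fold change was 0.30 (SE 0.20, 95% interval −0.12 to 0.73, edgeR p = 0.148, adjusted p = 0.669). DYRK4 in MeA leaned the other way, with 163, 211 and 316 CPM in WS birds, against 169, 278 and 343 CPM in TS birds. Only 2 of 10 WS birds lay above the TS mean and 3 lay below all TS birds. The log2 fold change was −0.27 (SE 0.15, interval −0.59 to 0.044, edgeR p = 0.0838, adjusted p = 0.609). Without the 4 outermost MeA libraries on the first principal component (2 of WS and 2 of TS birds), the values were 0.065 for CPLX3 and −0.12 for DYRK4, a choice made after the data were seen. The WS libraries left out lay at one end and the TS libraries at the other, and both genes varied along this component. The choice itself thus narrows the morph difference, and the smaller values say little about it.

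The other genes gave narrower limits in MeA. MATK had a lowest, median and highest level of 40.3, 54.2 and 70.2 CPM in WS birds, against 36.8, 48.4 and 75.0 CPM in TS birds, with a log2 fold change of 0.034 (interval −0.25 to 0.32, edgeR adjusted p = 0.958). MPPED1 averaged 560 ± 54.4 CPM in WS birds and 580 ± 27.9 CPM in TS birds (SD, n = 10 and 9), with −0.051 (interval −0.17 to 0.066, edgeR adjusted p = 0.811). CNKSR2 averaged 738 ± 83.0 CPM in WS birds and 708 ± 107 CPM in TS birds, with 0.059 (interval −0.12 to 0.23, edgeR adjusted p = 0.854). VAT1L averaged 242 ± 18.2 CPM in WS birds and 235 ± 34.7 CPM in TS birds, with 0.045 (interval −0.11 to 0.20, edgeR adjusted p = 0.879). WS and TS ranges overlapped for all 6 genes.

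In HYP the gene with the smallest unadjusted p was VAT1L, which had 2105, 2256 and 2309 CPM (lowest, median and highest) in WS birds, against 1991, 2107 and 2326 CPM in TS birds. Of 10 WS birds 8 lay above the TS mean, yet none lay above all TS birds. The log2 fold change of 0.066 was small and well measured (SE 0.032, interval −0.0020 to 0.13, edgeR p = 0.0523, adjusted p = 0.663). CNKSR2 averaged 137 ± 13.8 CPM in WS birds and 131 ± 12.5 CPM in TS birds (log2 fold change 0.070, interval −0.059 to 0.20, edgeR adjusted p = 0.873). MPPED1 averaged 86.3 ± 6.11 CPM in WS birds and 87.0 ± 6.82 CPM in TS birds (−0.013, interval −0.11 to 0.088, edgeR adjusted p = 0.979). For the genes with few HYP counts the limits were wide. MATK had 0.11 (interval −0.22 to 0.44, edgeR adjusted p = 0.939) and DYRK4 −0.0030 (interval −0.66 to 0.65, edgeR adjusted p = 0.999). CPLX3 held 54 counts over the HYP libraries of WS birds and 49 over those of TS birds, and with no filter its log2 fold change was −0.0022 (SE 0.40, edgeR adjusted p = 0.999).

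**Figure D3:**
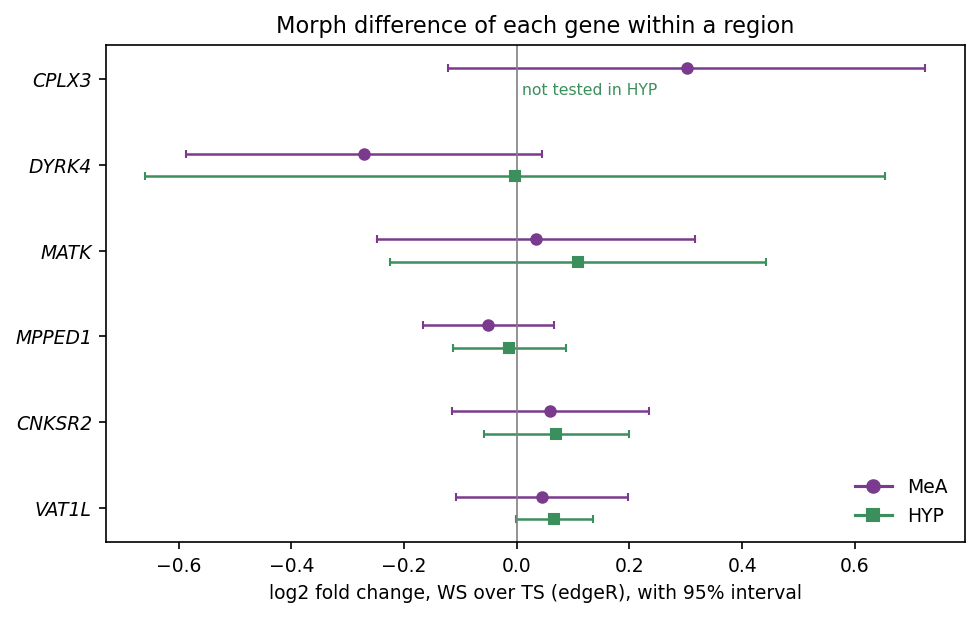
Log2 fold change of WS over TS (edgeR) within MeA (circles) and HYP (squares) with 95% intervals, for 10 WS and 9 TS birds. The widest intervals are those of DYRK4 in HYP (−0.66 to 0.65) and CPLX3 in MeA (−0.12 to 0.73), and every interval spans 0.

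Whether a morph difference itself differed between the regions was tested as an interaction with the bird as a block, and 0 of the 6 genes passed, where 0.0245% of 12245 genes did. None of the 6 had an unadjusted p under 0.05, where 10.5% of all genes tested did, and DESeq2 called none. CPLX3 entered this fit through its MeA counts alone, having failed the filter in HYP, where a library held 0 to 9 counts, so its estimate of 0.28 (SE 0.38, edgeR adjusted p = 0.821) says little of a difference between regions. DYRK4 stood at −0.28 (SE 0.30, edgeR adjusted p = 0.765). Both are signed as MeA minus HYP of the difference of WS from TS. For CNKSR2 the estimate was −0.0026 (interval −0.13 to 0.13).

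Age class was uneven between the morphs, so ASY was compared with SY with morph in the model. In neither region did edgeR call any gene (0% of 11672 in MeA and 0% of 11930 in HYP), and 418 genes in MeA and 562 in HYP had an unadjusted p under 0.05. DESeq2 called 0 genes in MeA and 1 in HYP, none of the 6. Of the 6 genes, MATK in MeA had the smallest unadjusted p. Its lowest, median and highest levels were 40.3, 46.3 and 70.2 CPM in ASY birds, against 36.8, 58.8 and 75.0 CPM in SY birds, so that the ranges overlapped almost wholly. The log2 fold change of −0.32 (SE 0.15, edgeR p = 0.0448) did not hold after adjustment over all genes (adjusted p = 1.00). With age class in the model the morph difference in MeA stood at 0.25 for CPLX3 and −0.22 for DYRK4 (edgeR adjusted p = 0.997 for both).

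Birds with a stage label other than E were compared with stage E birds, again with morph in the model. The edgeR count was 0% of 11913 genes in MeA and 0% of 12136 in HYP, with 1058 and 695 genes at an unadjusted p under 0.05. DESeq2 called 0 genes in MeA and 16 in HYP, none of the 6. CPLX3 in MeA had 76.0, 126 and 137 CPM (lowest, median and highest) in the 5 birds of other stages, against 71.1, 168 and 229 CPM in the 14 birds of stage E. All 5 lay below the stage E median. The log2 fold change was −0.42 (SE 0.22, interval −0.90 to 0.052, edgeR p = 0.0736, adjusted p = 0.576). MPPED1 in HYP had −0.099 (SE 0.052, edgeR p = 0.0696, adjusted p = 0.873), and no other of the 6 genes had an unadjusted p under 0.1 in either region.

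Covariation across birds was measured within a region, which does not use the region difference. Over the 15 pairs in MeA and the 15 in HYP, Pearson and Spearman correlations of log2 CPM were computed over 19 birds, with two-sided permutation tests of 100000 resamples and p-values adjusted over the 30 pairs. In MeA 1 pair passed, CPLX3 with DYRK4, with r = −0.71 (permutation p = 0.00094, adjusted p = 0.0282) and rho = −0.69 (permutation p = 0.00144, adjusted p = 0.0432). The TS bird with the lowest CPLX3 level, 71.1 CPM, had the highest DYRK4 level, 343 CPM. The WS bird with the highest CPLX3 level, 229 CPM, had 171 CPM of DYRK4, near the bottom of the DYRK4 range. The genes with the largest excess in MeA over HYP among the 6 thus ran opposite to each other across MeA libraries.

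The opposite course held within each morph, with r = −0.67 in the 10 WS birds and −0.68 in the 9 TS birds, and r after removing the morph means was −0.68 (permutation adjusted p = 0.0480). On the authors' variance-stabilized values it was −0.72 (permutation adjusted p = 0.0147). Without the 2 birds farthest from the median of CPLX3, r stayed at −0.71 but its adjusted p reached 0.0501. Without the 4 birds outermost on the first principal component r was −0.57 (15 birds, permutation p = 0.0260, adjusted p = 0.443). Against the log2 library total in MeA, r was 0.49 for CPLX3 and −0.50 for DYRK4, neither past the threshold (permutation adjusted p = 0.0762 for both). After removing the morph means both passed, in opposite directions. They stood at 0.55 for CPLX3 (permutation adjusted p = 0.0420) and −0.59 for DYRK4 (permutation adjusted p = 0.0289). After taking out the library total, r between CPLX3 and DYRK4 was −0.61 (permutation p = 0.00527, adjusted p = 0.158). The checks on the end birds and on library total were chosen after the data were seen. Without the end birds CPLX3 still ran from 71.9 to 217 CPM and DYRK4 from 163 to 325 CPM. Why r was lower there was not tested. In HYP, where both genes sit on few counts, r was 0.13 (permutation p = 0.595).

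The pair did not stand at the extreme of all genes. After centring within morph, CPLX3 ranked number 222 from the lowest correlation with DYRK4 among 11641 genes of MeA, and DYRK4 ranked number 510 from the lowest with CPLX3. The other MeA pairs with an unadjusted p under 0.05 failed the adjustment: DYRK4 with MPPED1 (r = 0.53, permutation adjusted p = 0.211), CPLX3 with MPPED1 (r = −0.51, permutation adjusted p = 0.248) and DYRK4 with VAT1L (r = −0.46, permutation adjusted p = 0.353). The median r over the 15 pairs was 0.018 in MeA and −0.050 in HYP, and in HYP 0 pairs passed and 0 had an unadjusted p under 0.05. Pairs with CPLX3 or DYRK4 rested on few counts in HYP and could show little there.

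**Figure D4:**
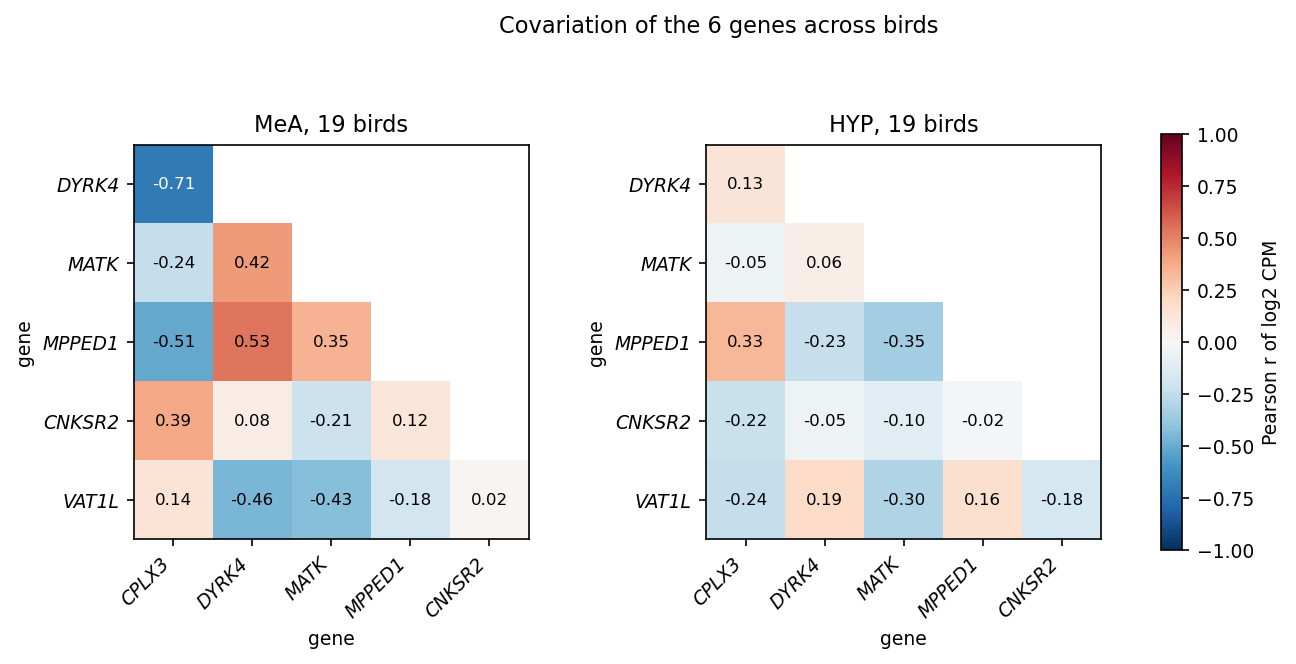
Pearson r of log2 CPM across 19 birds for each pair of the 6 genes, in MeA and in HYP. The strongest value is that of CPLX3 with DYRK4 in MeA, −0.71, the pair that passed adjustment, and the same pair stands at 0.13 in HYP.

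A bird high for a gene in MeA was compared with the same bird in HYP. CNKSR2 passed, with r = 0.73 (permutation p = 0.00052, adjusted over 6 genes 0.00312) and rho = 0.68 (permutation adjusted p = 0.0121), and r was 0.67 in WS birds and 0.79 in TS birds. A WS bird had 857 CPM of CNKSR2 in MeA and 149 CPM in HYP, while a TS bird had 575 CPM in MeA and 115 CPM in HYP. Birds high in one region tended to be high in the other, over a range of 1.58-fold in MeA and 1.40-fold in HYP. Without the 2 birds farthest from the MeA median r was 0.71 (permutation adjusted p = 0.0103). MATK had r = 0.47 (permutation p = 0.0414, adjusted p = 0.124), and the other 4 genes had r of 0.14 to 0.27 with permutation p-values of 0.269 or more. Among these, CPLX3 and DYRK4 rested on few HYP counts, so their r says little. All 6 were positive, but so were 88.8% of the 11434 genes tested in both regions, whose median r was 0.37. The r of CNKSR2 exceeded that of 92.0% of these genes, and 917 genes had a higher one.

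**Figure D5:**
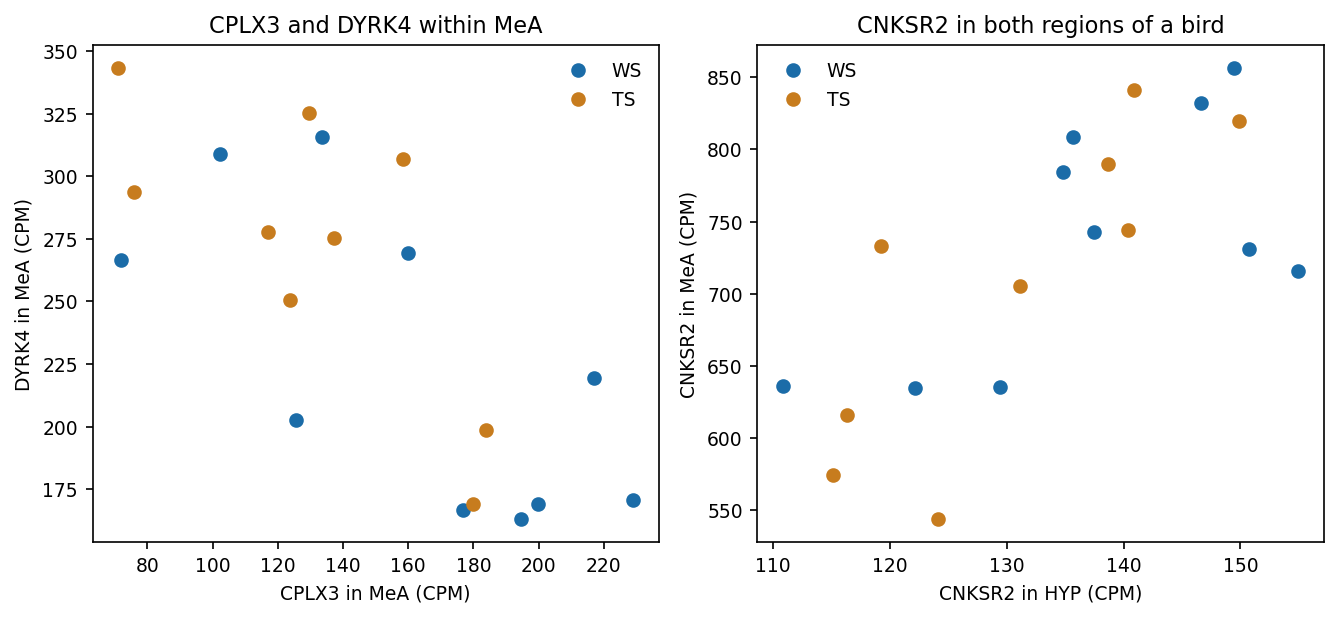
Left, CPLX3 against DYRK4 in the 19 MeA libraries (CPM), where birds high in CPLX3 are low in DYRK4. Right, CNKSR2 in HYP against CNKSR2 in MeA of the same bird (CPM), where birds with more CNKSR2 in MeA (range 544 to 857 CPM) also have more in HYP, blue for WS and orange for TS.

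The 6 genes were also set beside marker sums, library total and the first principal component of the MeA libraries, to which the genes themselves contribute and which took up 22.5% of the variance. The sign of the component was set so that CPLX3 rises along it. Relations with the component and with library total were not planned. Of all 36 relations over 19 birds 7 passed by Pearson's r and 3 by Spearman's rho. The share of all genes that would pass was not computed, so these counts do not set the 6 genes apart from others. CPLX3 fell with the pan-neuronal sum by r alone (r = −0.63, permutation adjusted p = 0.0232; rho = −0.60, adjusted p = 0.0501) and rose along the first component by both measures (r = 0.65, permutation adjusted p = 0.0232; rho = 0.66, adjusted p = 0.0342). DYRK4 fell with the hypothalamic sum by r alone (r = −0.59, permutation adjusted p = 0.0329; rho = −0.59, adjusted p = 0.0501) and along the first component by both (r = −0.74, permutation adjusted p = 0.0162; rho = −0.73, adjusted p = 0.0139). In MeA the largest part of the hypothalamic sum was LHX9, with a mean of 45.9 CPM, the listed marker that was higher in MeA than in HYP. The sum in MeA is therefore no plain measure of hypothalamic tissue in a punch. Without the 2 birds farthest from the median of the component, DYRK4 still passed (r = −0.73, permutation adjusted p = 0.0223) and CPLX3 did not (r = 0.62, permutation adjusted p = 0.0693).

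MPPED1 rose with the oligodendrocyte sum by both measures (r = 0.68, permutation adjusted p = 0.0232; rho = 0.71, adjusted p = 0.0139). By r alone it fell along the first component (r = −0.63, permutation adjusted p = 0.0232; rho = −0.50, adjusted p = 0.0937), and CNKSR2 rose with the pallial sum (r = 0.64, permutation adjusted p = 0.0232; rho = 0.56, adjusted p = 0.0723). Over the MeA libraries the oligodendrocyte sum ran from 1670 to 5285 CPM in WS birds and from 2973 to 5919 CPM in TS birds, and the pallial sum from 1382 to 1724 CPM in WS birds and from 1332 to 1668 CPM in TS birds. The hypothalamic sum in MeA was low, at 58.7 to 78.3 CPM in WS birds and 61.3 to 94.8 CPM in TS birds, against 274 to 329 CPM and 292 to 335 CPM in their HYP libraries. Without the 2 birds farthest from the median of the marker or component, r was −0.58 for CPLX3 with the pan-neuronal sum, −0.47 for DYRK4 with the hypothalamic sum, 0.45 for CNKSR2 with the pallial sum and −0.45 for MPPED1 with the first component, and none of these then passed. MPPED1 with the oligodendrocyte sum still did, at 0.65 (permutation adjusted p = 0.0317). After removing the morph means, in contrast, 13 relations passed, with all of the 7 among them. The added ones were CPLX3, DYRK4 and MPPED1 with library total, CPLX3 with the hypothalamic and pallial sums, and MATK with the first component. MPPED1 with library total had r = −0.57 (permutation adjusted p = 0.0358). DYRK4 with the hypothalamic sum then had r = −0.76 (permutation adjusted p = 0.00324). CPLX3 with that sum had r = 0.61 (permutation adjusted p = 0.0289), against 0.49 before (permutation adjusted p = 0.0762). MATK against the library total had r = −0.51 (permutation adjusted p = 0.0749), and −0.80 without 2 birds (permutation adjusted p = 0.00432). What part punch make-up has in the inverse course of CPLX3 and DYRK4 was not tested.

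For each gene, the 3 genes nearest to it in MeA were taken as those with the highest r across 19 birds after centring within morph, among 11641 genes. These values were chosen as maxima and carry no test. CPLX3 was nearest to PTPRR, a tyrosine phosphatase of MAP kinases (r = 0.92), the actin-nucleating subunit gene ARPC5 (0.92) and LOC102074569 (0.92). DYRK4 was nearest to LOC102065331 (0.90), ZC2HC1A (0.90) and KLHL1 (0.90). In log2 terms PTPRR differed between MeA and HYP by 0.85, ARPC5 by 1.03 and LOC102074569 by 1.86, all higher in MeA like CPLX3. KLHL1 was higher in MeA by 1.59 like DYRK4, LOC102065331 was lower (−0.69, edgeR adjusted p = 0.0142) and ZC2HC1A did not pass (0.072, edgeR adjusted p = 0.275).

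MATK was nearest to the potassium channel subunit gene KCNAB2 (r = 0.85), CACNG3, an auxiliary subunit of AMPA receptors (0.84), and ASCL3 (0.80). CNKSR2 was nearest to GRIA1, which encodes an AMPA receptor subunit (0.84), the kinase gene TNIK of the postsynaptic density (0.84) and NSMF (0.80). MPPED1 was nearest to SLC25A12, the mitochondrial aspartate and glutamate carrier (0.84), CEP135 (0.83) and LOC102070874, which the RefSeq gene table names FMN1 (0.82). VAT1L was nearest to TRHDE, the enzyme that degrades thyrotropin-releasing hormone (0.73), ZMAT4 (0.73) and COL25A1 (0.68). Over the 18 nearest genes of the 6, 12 were called between the regions in the direction of their member, 2 in the opposite direction and 4 were not called. Of all genes tested, 79.8% were called, 39% higher and 40.8% lower in MeA. None of the 6 was among the 3 nearest of another.

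Genome neighbours were taken from the RefSeq gene table of assembly bZonAlb1.hap1, and since the authors' build is not known, no positions are given. DYRK4 and MPPED1 share a chromosome and the other 4 genes lie on a chromosome each. None lies on the chromosome of ESR1, the estrogen receptor gene of the ZAL2 inversion. CPLX3 lies between ULK3 and CSK, the kinase related to MATK. The region differences of these neighbours were smaller than that of CPLX3, which was picked for its own. The log2 fold change of MeA over HYP was 0.33 for ULK3 (SE 0.079, edgeR adjusted p = 0.000566), called in the direction of CPLX3. For CSK it was −0.21, called in the other direction. DYRK4 adjoins RAD51AP1 (0.0071, edgeR adjusted p = 0.874), and MATK lies between ELAVL1 (0.16, edgeR adjusted p = 3.20e-06) and LOC102061680, which was too low to test but averaged 0.699 CPM in MeA and 0.0119 CPM in HYP. MPPED1 lies between SCUBE1 (−0.80, edgeR adjusted p = 1.77e-07) and SULT4A1 (0.56, edgeR adjusted p = 1.72e-14). CNKSR2 overlaps KLHL34, which had a mean of 0.038 CPM in MeA and 0.022 CPM in HYP. MPPED1 overlaps 2 long noncoding RNA genes that were not analysed here, and the sources used here do not say whether reads were counted by strand, so MPPED1 counts may hold reads of these.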

How the data were processed

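RNA-seq read counts per gene and variance-stabilized values were analysed from 38 libraries of 19 birds. The authors deposited whole-number counts that are not normalized, and 1 table per region of variance-stabilized values on an approximately log2 scale, per the file headers and labels. The submitters' processing notes name Novoalign, SAMtools, GATK, STAR, HTSeq and DESeq2. The name of the deposited counts holds the terms NCBI, Zal2m and minqual0, which are not defined there. Beyond these terms, the sources used here give nothing on the genome build, strand use or handling of multiply mapped reads. Not used were 2 count columns of a bird that is not among the samples.

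The test on counts was edgeR's quasi-likelihood F test (edgeR 4.0.16, R 4.3.3, TMM scaling, filterByExpr), called at a Benjamini-Hochberg adjusted p under 0.05 across every tested gene. MeA against HYP and the interaction had the bird as a block, and the other fits used 1 region. Standard errors were obtained by dividing the size of each estimate by the root of F. Correlations used log2 CPM with a prior count of 2 and scipy 1.17.1. DESeq2 1.42.0 and limma 3.58.1 (on the deposited log2-scale values) gave alternatives, and scripts were tested on simulated data. CPLX3 failed the filter in HYP alone.

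The bird number marks both libraries of a bird. Deviations from group means over 11434 genes correlated best with the bird's other region in 19 of 19 birds (r of 0.282 to 0.473, against at most 0.158 for another bird). Libraries of a group differed beyond sampling noise (chi-square per degree of freedom 5.22 to 35.9 over 162 pairs). Replicates are separate birds.

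The 6 genes, the lists and the tests were chosen with earlier results of these data known. The text names the 6 genes, the 3 nearest genes of each, and up to 4 called genes per list of relatives with the largest region difference plus the closest paralogs, and beside these NEUROD6, FEZF1 and LHX9 and the genome neighbours, named after their values were seen.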

Additional observations from a re-analysis of the deposited data

How the results depend on the processing

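Over 39 differences of the 6 genes between groups (morph, age, stage and interaction), 914 alternative values were computed. None was called, the lowest edgeR, DESeq2 or limma adjusted p being 0.374, 864 kept their direction and 50 turned it, all from estimates near 0. In HYP the WS minus TS log2 fold change of DYRK4 turned to 0.15 in stage E birds and 0.0053 on the variance-stabilized values, and that of MPPED1 to 0.0024 with age as a covariate. In MeA that of MATK turned to −0.0034 in stage E birds and that of CNKSR2 to −0.0054 with age as a covariate, and ASY minus SY of MATK in HYP turned to 0.033 with morph left out. Leaving out each bird gave −0.12 to 0.22 for DYRK4 and −0.034 to 0.018 for MPPED1 (morph, HYP), and −0.019 to 0.11 for MATK (morph, MeA). For age it gave −0.18 to 0.11 for MATK and −0.076 to 0.026 for MPPED1 in HYP, and −0.055 to 0.23 for CPLX3, −0.25 to 0.034 for DYRK4 and −0.0067 to 0.057 for VAT1L in MeA. For stage it gave −0.046 to 0.096 for CNKSR2 in HYP, and −0.12 to 0.034 for CNKSR2, −0.12 to 0.020 for MATK and −0.032 to 0.070 for VAT1L in MeA. For the interaction it gave −0.13 to 0.029 for MATK, −0.040 to 0.022 for CNKSR2 and −0.048 to 0.030 for VAT1L. Genes called between morphs in HYP were 95, but 51 with age as a covariate and 45 in stage E birds. In MeA they were 61, but 118 by DESeq2, 18 with age, 16 in stage E birds and 30 without the 4 end libraries. The interaction had 3 calls and 16 by DESeq2. For age in HYP the count was 0, and 1 by DESeq2 and 1 with no filter. For stage it was 0 in HYP, 16 by DESeq2 and 0 to 2 on leaving out each bird, and in MeA 0, and 1 with no filter. The MeA pairs past the threshold were 1, and 0 without the 2 farthest birds, without the 4 end birds or after library total. Marker relations past it were 7, and 13 after the morph means and 3 without the 2 farthest birds. With no replicate block, MeA against HYP had 9219 calls against 9772 and the interaction 2, and the pairing of libraries by bird changed no call of the 6 genes. Some of these fits used fewer birds, and the cause of the shifts was not tested.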

Other observations

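The relatives of the 6 genes were also compared between the morphs. In MeA 0 of 17 tested genes of synaptic vesicle release, 0 of 5 DYRK and HIPK kinases, 0 of 6 CSK and Src-family kinases, 0 of 17 genes of the Ras to MAP kinase cascade and 0 of 2 closest relatives passed edgeR's test of WS against TS, where 0.523% of all genes did. In HYP, where the same numbers of genes were tested in each list, 1 of the 6 CSK and Src-family kinases passed and 0 genes of the other lists did. Of all genes in HYP 0.796% passed, and 0.327% were lower in WS birds. The gene that passed was FRK, a Src-family kinase, which fell in WS birds by 0.97 on the log2 scale. Genes called between morphs in HYP fell from 95 to 51 with age as a covariate and to 45 in stage E birds. The call of FRK was not followed through these fits, and whether FRK lies on the inversion chromosome is not given here. FRK was low in HYP, with a mean of 2.34 ± 0.995 CPM (SD, n = 19). In MeA the lowest log2 fold change in the list of CSK and Src-family kinases was −0.76, which did not pass.

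Of the 24 groups of 4 to 10 libraries in which the level of one of the 6 genes was examined for a library standing apart by Dixon's criterion, 0 held one.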
